A study of Mus musculus with 13 samples.

Results

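The genes described here are the 10 genes of the Myc family and its Max-centred network: Mycn, Myc, Mycl, Max, Mga, Mnt, Mxd1, Mxd3, Mxd4 and Mxi1. They were followed through whole-genome sequencing of mouse acute leukaemias that arose after retroviral overexpression of N-Myc, the product of Mycn. Every row of the deposited single-nucleotide variant (SNV), insertion or deletion (INDEL) and copy number tables whose gene name field held 1 of the 10 symbols was taken. These were 10 of the 21631 protein-coding genes that RefSeq lists on chromosomes 1 to 19 and X, and they held 112 of the 1074723 SNV and INDEL rows of the series.

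Myc, N-Myc and L-Myc (the product of Mycl) are transcription factors that bind DNA only as pairs with Max. Mnt, Mga and the Mxd proteins, with Mxi1 among them, also pair with Max, occupy the same E-box sites and recruit repressor complexes, so that they oppose Myc proteins at shared targets. Myc and Mycn drive growth and division in blood-forming cells, and gain of the chromosome that carries Myc is a recurrent lesion of mouse T-cell leukaemia.

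Each of 7 cell populations was sequenced as 1 library of genomic DNA from bone marrow of C57BL/6 mice aged 8 to 10 weeks. All 7 populations were GFP+. B-ALL cells were B220+GFP+, T-ALL cells CD3+GFP+, AML cells Mac1+Gr1+GFP+, and AUL cells carried none of those 4 lineage markers (B220-CD3-Mac1-Gr1-GFP+). Mixed-phenotype leukaemia (MPAL) cells were sorted into a myeloid fraction, M-MPAL (Mac1/Gr1+, B220-, CD3/4/8-), and a T-lymphoid fraction, T-MPAL (CD3/4/8+, Mac1/Gr1-, B220-). For the Empty control GFP is the only marker named. The labels call the N-Myc construct retroviral and name neither its promoter nor the species of its N-Myc sequence, and they do not say what the empty control received, how many mice were pooled or whether both MPAL fractions came from 1 mouse. The B-ALL, T-ALL, AML and AUL libraries were made from 2000000 cells each and the other 3 libraries from 1000000 cells each. The Empty control thus matched the 2 MPAL fractions in cell number and differed in it from the other leukaemias.

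With 1 library per population no difference between populations has a replicate check, and no test between them was made. Intervals in parentheses are 95% intervals. Those on counts and shares cover counting error only. Those on medians, relative depth among them, are order-statistic intervals that reflect the spread between sites. Neither kind covers differences between animals. Reads were planned at 30x, and the median depth at 3116 SNV sites called homozygous in all 7 libraries was between 18 reads (Empty control) and 22 reads (T-ALL). The libraries held 36461 to 47499 SNV rows and 92317 to 132423 INDEL rows each.

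No coding change that alters a protein was called in any of the 10 genes in any library, and over all protein-coding genes 1.47% had such a call, splice sites included, in at least 1 library. Any exonic or splice-site call was found in 1 of the 10 genes and in 1.86% of all genes. Of the 112 rows, 106 were intronic and 6 exonic, with 0 rows in untranslated regions (UTRs) and 0 at splice sites. All 6 exonic rows were synonymous SNVs of Mycn, and they stood in M-MPAL and T-MPAL alone. All 83 INDEL rows lay in annotated repeats, 63 of them in simple repeats, which are short units repeated in tandem.

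The alleles of the 2 loci that best show what was called, a dinucleotide repeat in Myc and a 6-base repeat in Mga, are printed here 5′ to 3′ on the plus strand of mm10 from the deposited tables, with the inserted or deleted bases in capitals. Each line gives the first 24 bases of the reference, or those bases with the insertion added.
Myc intron, chr15:61987338-61987385, reference with the deleted unit marked: cCAcacacacacacacacacacac
Myc intron, the allele that gained a unit: cCAcacacacacacacacacacacac
Mga intron, chr2:119909806-119909836, reference: cccttttccttttccttttccttt
Mga intron, the allele that gained a unit: cCCTTTTccttttccttttccttttccttt

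The rows were spread unevenly over the genes. Mxi1, which encodes a repressor that competes with Myc for Max, held 53 rows at 14 positions over its 63.2 kb. Mga, the largest of the genes at 97.6 kb and a Max partner with a second, T-box DNA-binding domain, held 29 rows at 10 positions. Max, Myc, Mxd1, Mxd3 and Mycn held 6 rows each. Mycl, Mnt and Mxd4 held 0 rows in all 7 libraries.

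Absence of a row was common among genes of that size. Of the protein-coding genes within 1.5 times the length of Mycl (6.90 kb), 58.3% had no row in any library. The same share was 41.9% for genes of the size of Mxd4 (11.1 kb) and 32.2% for those of the size of Mnt (14.9 kb).

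Per library, 12 (6.20 to 20.96, exact Poisson) rows in AUL was the lowest count and 21 (13.0 to 32.1) in AML the highest, and these intervals overlap. B-ALL had 16 rows, T-ALL 14, M-MPAL 17, T-MPAL 14 and the Empty control 18 (10.7 to 28.4). Every leukaemia's count therefore lay within the control's interval, at 12 to 21 rows. Per 100 kb of gene the 10 genes held 4.68 (AUL) to 8.19 (AML) rows, against 3.91 (T-MPAL) to 5.29 (T-ALL) rows over all protein-coding genes. In each library the interval of the 10 genes included that library's own value over all genes, in AML 5.07 to 12.5 against 5.15.

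In B-ALL 5 of the 10 genes had at least 1 row, against 44.4% of all protein-coding genes. The count was 4 of 10 in T-ALL (46.1% of all genes), 5 in AML (45.6%) and 4 in AUL (44.6%). M-MPAL had 6 such genes (41.6%), T-MPAL 4 (41.4%) and the Empty control 6 (43.2%). None of these counts was more than 2 genes from the number that the share over all genes gives.

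**Figure D1:**
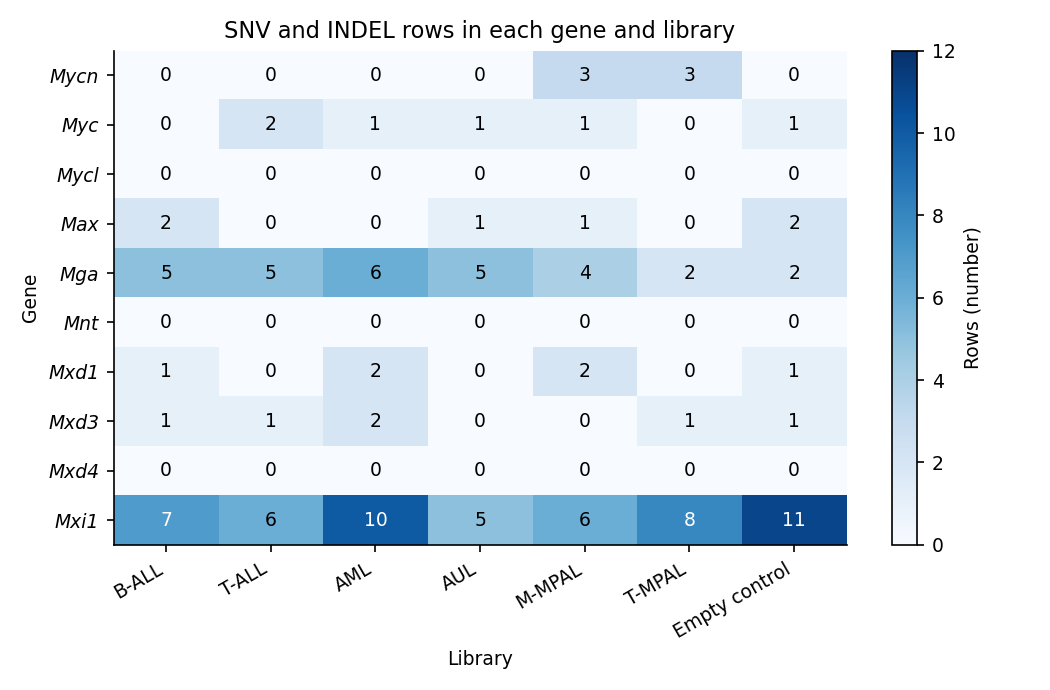
Number of SNV and INDEL rows in each of the 10 genes (vertical axis) and each of the 7 libraries (horizontal axis), with darker cells for higher counts. Mycn has 3 rows in each MPAL fraction and 0 elsewhere, Mxi1 and Mga have rows in every library, and Mycl, Mnt and Mxd4 have none.

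Mycn carries the only exonic calls. It spans chr12:12936093-12941836 (mm10), and the 3 SNVs lay 2.80 kb apart at most, 1 in exon 2 and 2 in exon 3. The deposited annotation numbers coding bases from the start codon and gives the changes as C372T (R124R, position 12940022), C921T (G307G, position 12937474) and A1170G (Q390Q, position 12937225). Each substitution leaves the amino acid as it was.

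At codon 124, 13 of 39 reads carried the alternative base in M-MPAL and 28 of 60 in T-MPAL. At codon 307 the counts were 8 of 33 and 12 of 33 reads. At codon 390 they were 8 of 37 and 28 of 57 reads. T-MPAL had the higher share at all 3 sites.

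Over the 3 sites the alternative base made up 26.6% (18.6 to 35.9, exact Clopper-Pearson) of 109 reads in M-MPAL and 45.3% (37.2 to 53.7) of 150 reads in T-MPAL, intervals that do not overlap. The sites at codons 307 and 390 are 249 bp apart, less than the 350 bp fragment length, so that some reads of the sums come from 1 fragment and the intervals are too narrow. Qualities, which are Phred-scaled, were 173, 63 and 85 in M-MPAL and 222, 184 and 222 in T-MPAL, in the order of the codons. All 8 alternative reads at codon 307 in M-MPAL lay on the reverse strand, while the other 5 calls had alternative reads on both strands.

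Reads that lacked the alternative base were similar in number in the 2 fractions, with 26, 25 and 29 in M-MPAL and 32, 21 and 29 in T-MPAL. These numbers were set beside 244 other SNVs on chromosomes 1 to 14 that were called in both MPAL fractions and in no other library. The sites lay outside repeats and segmental duplications and had at least 10 reads in each fraction. They were not restricted by genotype, whereas every Mycn call was heterozygous. Any homozygous site among them holds few reads without the alternative base and lowers the values below. Only 19 of all 1006 SNVs of this class were exonic, so the comparison is mostly with sites outside exons. There the median number of such reads was 13 (12 to 13) in M-MPAL and 12 (11 to 13) in T-MPAL. Only 6.15% of those sites in M-MPAL had as many as the lowest Mycn site (25 reads), and 6.97% in T-MPAL had as many as its lowest (21 reads).

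Total depth at the Mycn sites, 33 to 39 reads in M-MPAL and 33 to 60 in T-MPAL, was also above the medians of 25 (24 to 26) and 24 (22 to 25) reads at the comparison sites. Alternative reads were 8 to 13 in M-MPAL, around the median of 12 (11 to 12). In T-MPAL they were 28, 12 and 28 in the order of the codons, against a median of 11 (11 to 12), so that 2 of the 3 sites were above it there. Reads from an integrated N-Myc copy and reads from the chromosomal gene can align to the same exons and cannot be told apart in the tables. No copy number call covered Mycn in any of the 6 libraries with a usable copy number table, whose shortest calls were 1 kb.

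**Figure D2:**
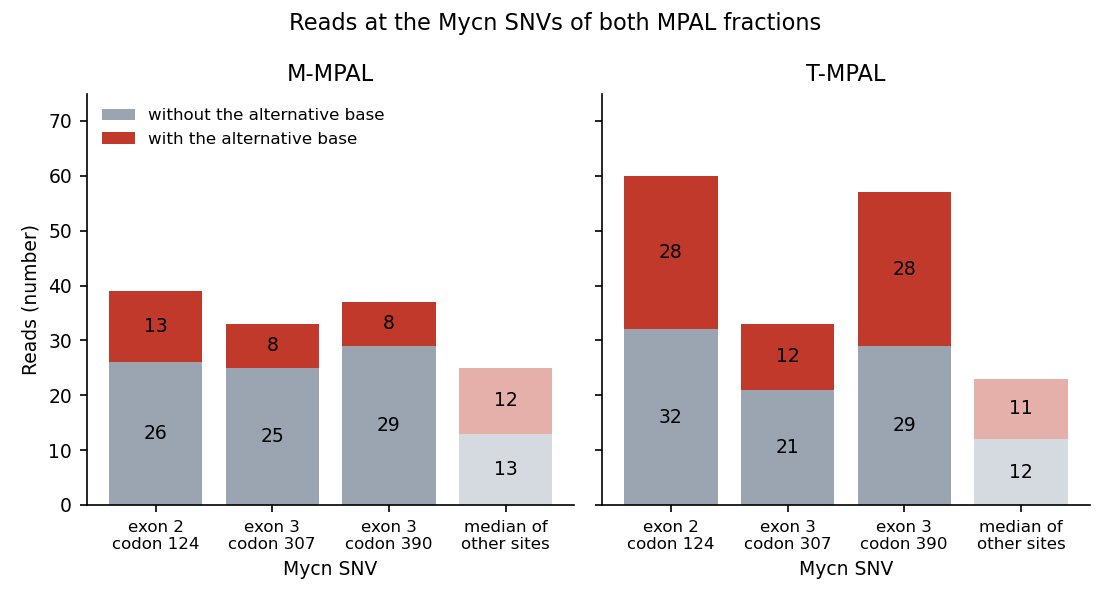
Reads with (red) and without (grey) the alternative base at the 3 Mycn SNVs in M-MPAL (left) and T-MPAL (right), in numbers of reads. The paler bar in each panel stacks the separate medians of both read types over 244 other SNVs of both fractions, and each Mycn bar is taller than it.

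No other SNV of this class was close to Mycn. The nearest SNVs that both MPAL fractions share with no other library were 3.30 Mb below and 4.07 Mb above them. Within 500 kb, 2 (T-MPAL) to 8 (T-ALL) other SNVs of any kind were called per library.

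Of the 1006 SNVs found in both MPAL fractions alone, 19 were exonic and 27.8% were listed in dbSNP, a catalogue of known variants. All 3 Mycn SNVs were listed. Among all protein-coding genes 0.0647% (14 of 21631) had an exonic SNV of this class, and Mycn was 1 of the 14. It was the 1 gene with 3 such SNVs, and 2 other genes had 2.

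Myc was gained in the MPAL fractions. Myc (chr15:61985341-61990361) lay in a segment at 3 copies of 2.33 Mb in M-MPAL (chr15:60211001-62537000) and in one of 262 kb in T-MPAL (chr15:61854001-62116000). Copy number gains covered 3.54% of protein-coding genes in M-MPAL and 3.91% in T-MPAL. These calls were pieces of a whole: gains on chromosome 15 added up to 99.6 Mb for M-MPAL and 101 Mb for T-MPAL, against 0.158 to 0.232 Mb in B-ALL, T-ALL, AML and the Empty control.

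The AUL copy number table breaks off at the start of chromosome 2, so that it holds no statement on any of the 10 genes. Depth was therefore read from the SNV tables, at sites called homozygous in all 7 libraries, each divided by its library's median so that 1 is the typical depth of that library. On chromosome 15, over 138 sites, AUL stood at 1.35 (1.25 to 1.45). M-MPAL stood at 1.30 (1.15 to 1.40) and T-MPAL at 1.47 (1.37 to 1.58).

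B-ALL, T-ALL, AML and the Empty control lay between 0.95 and 1.05 on the same sites. AUL thus had the raised chromosome 15 depth of the MPAL fractions, with an interval that overlaps both of theirs and none of the other 4. On this scale 3 copies in every cell would give 1.5. The intervals of AUL and M-MPAL end below that, at 1.45 and 1.40, and that of T-MPAL includes it. With each site divided by the control the values were 1.28 in AUL, 1.22 in M-MPAL and 1.37 in T-MPAL.

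Within 5 Mb of Myc 13 such sites remained. Relative depth there was 1.5 (1.2 to 1.9) in AUL, 1.55 (1.20 to 1.65) in M-MPAL and 1.74 (1.42 to 2.05) in T-MPAL. It was 1.15 (0.90 to 1.40) in B-ALL, 1.23 (0.91 to 1.36) in T-ALL, 1.20 (1.00 to 1.30) in AML and 0.94 (0.61 to 1.17) in the Empty control. With so few sites the 3 raised libraries keep clear of the control only, and T-MPAL also of B-ALL, T-ALL and AML.

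**Figure D3:**
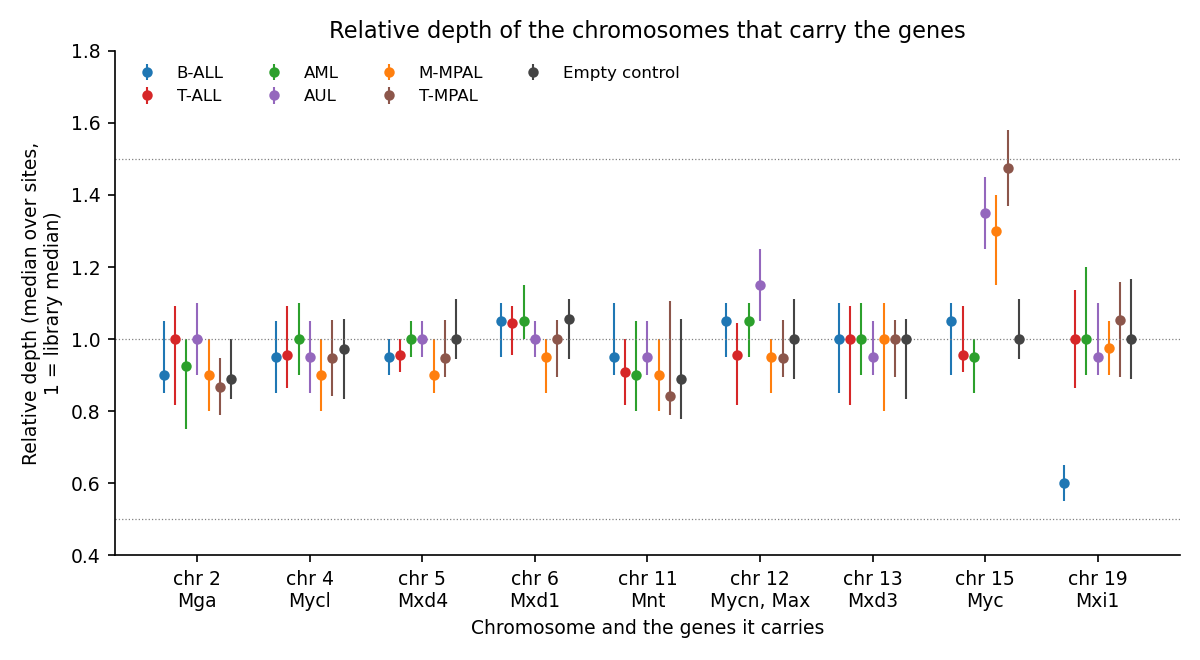
Relative depth (median over sites, 1 being the library's own median; the axis starts at 0.4) of the 9 chromosomes that carry the 10 genes, for 7 libraries, with bars for the 95% order-statistic interval. AUL, M-MPAL and T-MPAL stand at 1.30 to 1.47 on chromosome 15 with Myc, and B-ALL at 0.60 on chromosome 19 with Mxi1.

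Allele shares around Myc gave a second reading of the same chromosome. Heterozygous SNVs found in AUL alone (quality at least 100, at least 10 reads, outside repeats) had an even share of alternative reads, between 0.4 and 0.6, at 25.9% (18.2 to 34.8) of 116 sites on chromosome 15. On the autosomes other than 12 and 15 to 19 the share of even sites in AUL was 67.7% (65.5 to 69.9) of 1784. On chromosome 15, 52 sites lay above 0.6 and 34 below 0.4, with a median of 0.58.

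Within 20 Mb of Myc, 15 of 51 sites in AUL were even, 23 were above and 13 below. The site nearest to Myc, 1.55 Mb away at chr15:63534770, had 28 of 44 reads with the alternative base (0.64, 0.48 to 0.78). The next, 2.09 Mb away on the other side at chr15:59894193, had 13 of 44 (0.30, 0.17 to 0.45). AUL therefore showed high and low shares side by side on both sides of the gene.

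The same measure was low in the MPAL fractions on chromosome 15, with 21.9% (9.28 to 40.0) of 32 sites even in M-MPAL and 11.1% (0.28 to 48.2) of 9 in T-MPAL. Unlike in AUL, most uneven sites were low. In M-MPAL 5 sites lay above 0.6 and 20 below 0.4, and in T-MPAL 0 above and 8 below. AML had 0 above and 6 below, and the Empty control 0 above and 4 below. Their other autosomes gave 57.6% (53.2 to 61.9) and 59.2% (52.9 to 65.3). T-MPAL's interval is wide and reaches to within a few points of its other chromosomes. Few sites could be read in libraries without raised depth on chromosome 15. Even sites were 2 of 3 in B-ALL, 5 of 12 in T-ALL, 1 of 7 in AML and 0 of 4 in the Empty control, whose other autosomes were also low at 22.5% (13.5 to 34.0) of 71. A low share was therefore not limited to the 3 libraries with raised depth.

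SNVs that both MPAL fractions share with no other library could be compared between them site by site. The nearest to Myc, 1.11 Mb away at chr15:63094166, had 18 of 29 reads with the alternative base in M-MPAL and 12 of 42 in T-MPAL. The next, 4.66 Mb away at chr15:66642887, went the other way, with 8 of 30 in M-MPAL and 28 of 43 in T-MPAL. At the third, 9.37 Mb away, the counts were 7 of 28 and 33 of 41.

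Of 11 such sites within 20 Mb of Myc, 9 lay above 0.5 in 1 fraction and below it in the other. Among the 10 of them with at least 10 reads in both fractions it was 8, or 80.0% (44.4 to 97.5), and on chromosomes 1 to 14 it was 37.9% (33.5 to 42.4) of 470 sites. Over the whole of chromosome 15, 12 of 32 sites with at least 10 reads were above 0.6 in 1 fraction and below 0.4 in the other, 5 of them high in M-MPAL and 7 high in T-MPAL. That is 37.5% (21.1 to 56.3), against 4.89% (3.13 to 7.25) of the sites on chromosomes 1 to 14. Within 20 Mb of Myc 5 of the 10 sites passed these limits, and over chromosome 15 the other 20 of the 32 did not.

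**Figure D4:**
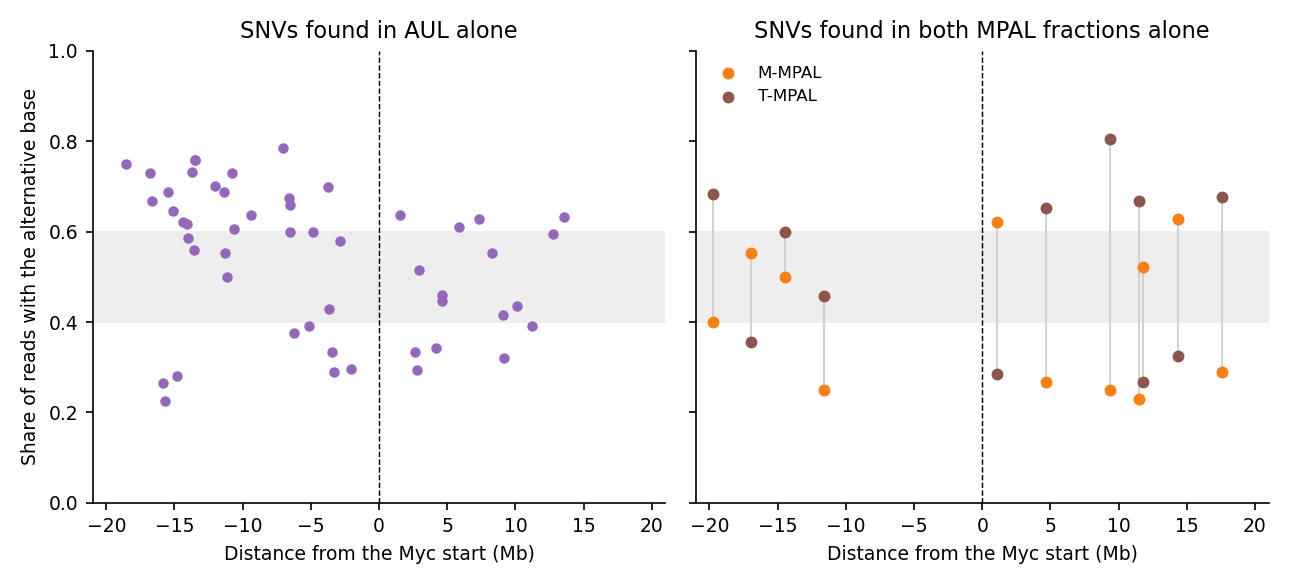
Share of reads with the alternative base (vertical axis) against distance from the start of Myc in Mb (horizontal axis), for SNVs of AUL alone (left, 51 sites) and for SNVs of both MPAL fractions alone (right, 11 sites, a line joining the fractions). Grey marks shares from 0.4 to 0.6, which hold 15 of the 51 AUL sites, and 9 of the 11 MPAL sites change side of 0.5 between the fractions.

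Inside Myc the tables hold 6 rows at 2 positions, all intronic, in simple repeats. The dinucleotide repeat printed above, with 23 copies of its unit in the reference, was singled out after its values were seen. The 24-unit allele was called in AUL with 12 of 18 reads (0.67, 0.41 to 0.87) and in AML with 3 of 16 (0.19, 0.04 to 0.46). The 22-unit allele was called in T-ALL (6 of 19 reads), M-MPAL (6 of 16) and the Empty control (8 of 24).

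A change of length at this repeat was thus called in the control as well as in leukaemias. Only the AUL call passed a quality of 100, at 222. B-ALL and T-MPAL had no row in Myc.

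Mxi1 was lost from 1 chromosome copy in B-ALL. The gene (chr19:53310128-53373293) lay in a segment of 7.88 Mb at 1 copy (chr19:53045001-60924000), 1 of 9 losses that covered 57.7 Mb of chromosome 19. Losses covered 3.03% of protein-coding genes in B-ALL. No copy number call touched Mxi1 in T-ALL, AML, M-MPAL, T-MPAL or the Empty control.

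Relative depth on chromosome 19, over 82 sites, was 0.60 (0.55 to 0.65) in B-ALL and 0.95 to 1.05 in the other 6 libraries, AUL among them. Within 5 Mb of Mxi1, over 25 sites, B-ALL stood at 0.55 (0.50 to 0.65). Loss of 1 of 2 copies in every cell would give 0.5. The interval over the chromosome lies above that, and the interval within 5 Mb of Mxi1 begins at it. Sites with too few reads in B-ALL to be called there are left out of this measure, which can raise both values. When each site was divided by its depth in the control the value was 0.675 over the chromosome and likewise 0.675 within 5 Mb of Mxi1.

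The gene itself holds 4 positions called in every library. The SNV at chr19:53363226, 53.1 kb into the gene and outside repeats, was homozygous in all 7 libraries and had 14 reads in B-ALL. T-ALL had 42 reads there, AML 32, AUL 31, M-MPAL 30, T-MPAL 41 and the Empty control 32, so that B-ALL was the lowest. The SNV at chr19:53350589, in a SINE repeat, had 4 reads in B-ALL and 6 (AML) to 11 in the others.

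The other 2 positions were less clear. At the 1-base deletion at chr19:53362639 B-ALL had 18 reads and the Empty control 14, the lowest. At the repeat at chr19:53311079 B-ALL and T-MPAL had 10 reads each and the other libraries 12 to 17. Summed over the 4 positions, B-ALL had 46 reads, 0.575 times what its library median gives, and the other libraries had 70 to 100 reads, 0.913 to 1.32 times.

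**Figure D5:**
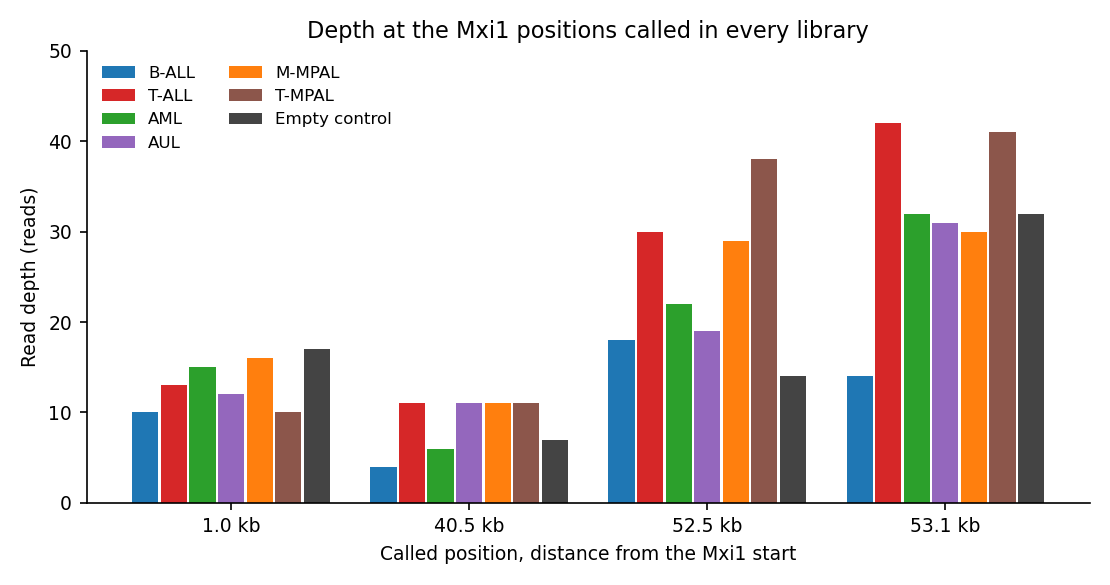
Read depth (reads, bars from 0) of 7 libraries at the 4 Mxi1 positions called in all of them, placed by distance from the start of the gene. B-ALL is lowest at 40.5 kb and 53.1 kb, level with T-MPAL at 1.0 kb, and above the Empty control at 52.5 kb.

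Around Mxi1 4 SNVs were shared by the MPAL fractions alone, and T-MPAL was higher than M-MPAL with counting intervals that do not overlap at 2 of them. At chr19:48598163, 4.71 Mb from the gene, 23 of 24 reads in T-MPAL carried the alternative base (0.96, 0.79 to 1.00), against 13 of 28 in M-MPAL (0.46, 0.28 to 0.66). At chr19:38864256, 14.4 Mb away, the counts were 24 of 24 (0.86 to 1.00) and 12 of 21 (0.34 to 0.78). At chr19:60098344, 6.79 Mb on the other side, both fractions were high, with 23 of 24 and 24 of 26. At chr19:39260387, 14.05 Mb away, both were low, with 15 of 41 and 11 of 35. Relative depth within 5 Mb of Mxi1 was 1.05 (0.89 to 1.16) in T-MPAL and 0.95 (0.75 to 1.15) in M-MPAL.

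Within Mxi1, INDELs at simple repeats made up most of the rows. The dinucleotide repeat at chr19:53311079 was shorter than the reference in all 7 libraries, with 2 shortened alleles called in each but T-ALL, which had 1. That B-ALL had 2 alleles called here, and heterozygous INDEL calls at 2 further repeats (5 of 9 and 4 of 20 reads), stands beside its 1-copy call. Repeat length is read less reliably than a base, and whether these B-ALL calls are true alleles was not tested.

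Mxi1 rows were most numerous in the Empty control (11) and AML (10) and fewest in AUL (5). B-ALL, with its lost copy, had 7, which is inside the range of the others.

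Max, the obligate partner, lies at chr12:76937269-76962323, on the chromosome of Mycn, and had no copy number call. AUL was the 1 library whose relative depth on chromosome 12 had an interval above 1, at 1.15 (1.05 to 1.25) over 139 sites, against 0.95 to 1.05 in the other 6. Within 5 Mb of Max, over 15 sites, AUL stood at 1.3 (1.1 to 1.8) and the others at 0.85 to 1.20. Within 5 Mb of Mycn, over 6 sites, AUL stood at 1.25 (0.90 to 1.40), within the range of the others, which reached 1.33 in the control. With each site divided by the control the value for AUL was 1.08 over chromosome 12 and 1.64 near Max. Near Mycn it was 0.97, below 1.

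Allele shares on chromosome 12 in AUL did not depart as on chromosome 15: 60.7% (51.4 to 69.4) of 122 private sites were even. This interval overlaps that of AUL's other autosomes. The upper end of AUL's depth interval on chromosome 12, 1.25, is below the 1.5 of 3 copies in every cell. So are those of AUL (1.45) and M-MPAL (1.40) on chromosome 15, where Myc was called at 3 copies in M-MPAL. Whether chromosome 12 was gained in AUL was not tested.

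Max had 6 rows, all INDELs in intronic simple repeats. The 1 private call of quality 100 or more was in the Empty control, a 2-base deletion at chr12:76959972 with 9 of 20 reads.

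Mga had 2 calls shared by all 7 libraries at 1 position, chr2:119909806, in a low-complexity run. The insertion printed above was homozygous everywhere, with all reads carrying it (10 of 10 in B-ALL to 23 of 23 in T-ALL). An SNV called at the same base had 4 (T-MPAL) to 8 (M-MPAL) alternative reads and shares of 0.16 (T-ALL) to 0.29 (AML). Neither call distinguishes 1 library from another.

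A 5-base insertion in T-ALL at chr2:119934396, in a repeat of that unit, was private to T-ALL with a quality of 113, though only 4 reads covered it (4 of 4). The other private Mga rows had qualities below 100. No copy number call covered Mga.

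The repressors Mxd1 and Mxd3 held only repeat INDELs. Mxd1, induced as blood cells differentiate, had rows in B-ALL, AML, M-MPAL and the Empty control. Its 1 private call of quality 100 or more was again in the control, a 4-base deletion at chr6:86661112 with 9 of 19 reads, at a dinucleotide repeat where B-ALL, AML and M-MPAL had other alleles. Mxd3, best known from dividing cells, had 6 rows at 3 positions and none of quality 100.

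Together the 10 genes had 24 private rows, 7 each in AML and the Empty control and 1 to 3 in each other library. The share of private rows over all genes is not given here, so these counts have no background. Only 4 of the 24 reached a quality of 100. The control held 3 of these 4, in Max, Mxd1 and Mxi1 (a 2-base deletion at chr19:53326619 with 9 of 20 reads), and T-ALL held the Mga insertion. No private call of that quality in a leukaemia lay outside a repeat.

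The promoters held no calls. RefSeq (GRCm38.p6) windows from 250 bases before to 50 bases after the start site were at hand for 9 of the 10 genes, 11 windows in all. None held an SNV or INDEL in any library, and of all 32851 such windows 1.48% held at least 1.

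Depth around the 8 genes other than Myc and Mxi1 varied from 0.66 to 1.33 over 56 combinations of gene and library, on 6 to 26 sites each. In 51 of the 56 the interval included 1. The exceptions were Max in AUL, given above, Mga in T-ALL at 1.14, Mycl in B-ALL at 0.70, Mxd1 in T-MPAL at 0.68 and Mxd4 in T-ALL at 0.80. The chromosomes of the last 3 stood at 0.95, 1.00 and 0.95 in those libraries. Most of these values were not particular to the library named. Near Mycl the libraries ranged from 0.70 to 0.89, and near Mxd4 from 0.725 to 0.94, so that all lay below 1. Near Mga they ranged from 0.83 to 1.25, with B-ALL highest. Near Mxd1 they ranged from 0.68 to 1.06, with T-MPAL lowest.

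Other genes of the network were read in the same way, from a list of 25: the parallel Mlx branch (Mlx, Mlxip, Mlxipl), chromatin and repressor cofactors (such as Trrap, Ep400, Kat5, Sin3a, Hdac1), enzymes that control Myc protein stability (such as Fbxw7, Huwe1, Skp2, Gsk3b) and target genes or regulators (such as E2f1, Tfap4, Bin1). They held 298 rows in 19 of the 25 genes, of which 291 were intronic and 0 exonic. Over all protein-coding genes 60.9% had a row in at least 1 library, and 7 of the 10 genes described here did. The other 7 of the 298 rows were INDELs of repeats in 3′ UTRs, in E2f1 (B-ALL, M-MPAL), Gsk3b (T-ALL, AML), Mlxip (B-ALL, AML) and Sin3b (T-MPAL). All 7 had qualities below 100.

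Copy number calls covered 5 of the 25 genes. That count joins all libraries with a usable table, and gains with losses. Each share of all genes given beside it is for 1 library and 1 direction, so the count cannot be set against them. Skp2, a ubiquitin ligase subunit that targets Myc, lies on chromosome 15 and was at 3 copies in M-MPAL and T-MPAL, with Myc. Kat5, an acetyltransferase recruited by Myc, lies on chromosome 19 and was at 1 copy in B-ALL, with Mxi1. Tfap4, a direct Myc target, and Gsk3b, the kinase that marks Myc for degradation, lie on chromosome 16 and were at 3 copies in B-ALL and AML. Gains covered 2.83% of protein-coding genes in B-ALL and 2.91% in AML.

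Huwe1, a ubiquitin ligase gene on the X chromosome, was at 1 copy in M-MPAL, where losses covered 3.58% of genes. No call covered Huwe1 in T-MPAL, where losses covered 0.037% of genes. The sex of the mice is not in the labels. Each of these 5 genes shares its call with long stretches of its chromosome, from 0.725 to 22.7 Mb.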

How the data were processed

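Genomic DNA of 7 libraries was read as pairs of 150 bp. The submitters' processing notes name BWA, without a version, and mm10. Per the file headers and names, samtools gave the SNVs and INDELs, FREEC the copy number, and ANNOVAR the genes, repeats and dbSNP 142 entries. Caller versions and filters were not given in the sources used here. Each deposited call carries a quality score of at least 20 and read counts given by the authors. In the deposited copy number tables each segment has a whole number of copies, 2 being normal. The AUL table holds 17 whole lines and ends within a line. The 6 integration-site samples are not analysed here.

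The genes, lists and alternatives were chosen with earlier results of these data known. Gene symbols were split at commas and semicolons. Named were all exonic, splicing and UTR calls in the genes, and intronic calls private to 1 library with a quality of at least 100. A private call had no call with the same alleles in the other 6 libraries. Relative depth used SNVs homozygous in all 7 libraries, on chromosomes 1 to 19, outside segmental duplications, with a mean depth of 10 to 60 reads. The main alternatives were stricter read depth, quality and repeat filters. Depth and allele-share measures were added after seeing the data. Code ran in Python 3.11.15 with pandas 2.3.3 and scipy 1.17.1, and was tested on simulated data. Gene spans are RefSeq's on GRCm38.p6, the assembly of mm10.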

Additional observations from a re-analysis of the deposited data

How the results depend on the processing

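Rows per library fell most when rows in repeats were left out: 5 stayed in T-MPAL, 4 in M-MPAL and 1 in each of the other 5 libraries. With at least 20 reads the counts were B-ALL 4, T-ALL 6, AML 5, AUL 2, M-MPAL 10, T-MPAL 7 and the Empty control 7, and with a quality of at least 100 they were 5, 7, 6, 7, 8, 9 and 9 in the same order. An alternative share of at least 0.2 with 4 alternative reads moved T-ALL to 9 and kept the other counts within 1.5 times, and so did at least 10 reads and RefSeq spans for all. The Mycn rows kept their number under each of these, except that 1 of 3 in M-MPAL reached a quality of 100. Private rows of that quality were 0 in B-ALL, AML, AUL, M-MPAL and T-MPAL, 1 in T-ALL and 3 in the Empty control. Private by position alone, AML and the Empty control had 4 each, and with at least 10 reads T-ALL had 1. Of the 6 calls shared by all libraries, 0 had 20 reads in every one. The 3 copy number calls over Myc and Mxi1 were the same under the 3 alternatives. These were a minimum length of 10 kb, overlap with the RefSeq span, and removal of calls also in the control. They were a weak check, since each call is longer than that and covers the whole gene. No control call covers either gene. Relative depth in B-ALL was 0.675 on chromosome 19, and the same within 5 Mb of Mxi1, when each site was divided by the control. The cause of these moves was not tested beyond the smaller number of rows each filter leaves. No paired analysis was possible because each population has 1 library. Depth limits the share at any single site, as its interval shows, and variants that the callers' filters removed were not seen.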
